A study of Mus musculus with 12 samples.

Results

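The Schlafen genes are a mouse gene family whose proteins restrain cell growth and viral replication. The family was first described in developing thymocytes, and its name, from the German word for sleeping, refers to growth arrest. Members fall into classes by length. Class I proteins (Slfn1 and Slfn2) carry the shared Schlafen core, class II proteins (Slfn3 and Slfn4) are longer by a linker, and class III proteins (Slfn5, Slfn8 and Slfn9) also have a helicase-like C-terminal part. Several members are known to be induced by type I interferon in leukocytes. Slfn2 is known from mutant mice as a gene needed for the quiescence of T cells and monocytes, and Slfn4 as a gene of myeloid cells.

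The 7 genes described here were taken by symbol from a table of 16570 genes, in which 10 symbols begin with Slfn. They were chosen by their family name with their counts in all 12 libraries already known, so the levels and fold changes below describe these libraries and are no independent evidence for the family. The other 3 rows are Slfn14, Slfnl1 and the pseudogene Slfn10-ps.

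RNA was sequenced from mouse macrophages grown out of bone marrow, which can become bone-resorbing osteoclasts, in 4 groups of 3 libraries. All came from C57BL/6J mice of 6 to 8 weeks and were grown with 50 ng/mL M-CSF, the survival factor of macrophages, first for 2 days and then for 2 days of treatment. The RHC80267 group received 100 ng/mL RANKL, the cytokine that drives osteoclast formation, and 1 µM RHC80267, known as an inhibitor of diacylglycerol lipase. The BMS309403 group received RANKL at the same dose and 1 µM BMS309403, which is known to block FABP4, a carrier of fatty acids. The RANKL group received RANKL with no inhibitor, and the M-CSF group received neither RANKL nor an inhibitor. The labels name no vehicle and do not say whether the 3 libraries of a group came from separate cultures or animals. The p-values therefore reflect only how far these libraries spread, and that spread may be technical. Both inhibitor groups are set against the same RANKL libraries.

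Total expected counts were 17760844 to 18344989 per library, and the 7 genes together held 0.0357% to 0.115% of them. All 10 osteoclast markers examined (among them Acp5, Ctsk and Calcr) rose in the RANKL libraries against the M-CSF libraries. In this comparison 31.4% of all genes tested rose. The M-CSF receptor gene Csf1r had group means of 2752 to 4972 CPM. CPM, the usual depth-scaled unit of RNA sequencing, is the expected count relative to the TMM-adjusted library size. The labels call the cells macrophages, while the summed level of the 10 osteoclast markers was 16523 to 18660 CPM with RHC80267, 6899 to 7779 CPM with BMS309403, 8435 to 10470 CPM with RANKL and 175 to 200 CPM with M-CSF.

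The 7 genes lie side by side on chromosome 11, over 263.8 kb from 82951349 to 83215154 of GRCm38 in the GENCODE M21 annotation. In order they are Slfn5 (plus strand), Slfn9 and Slfn8 (both minus strand), then Slfn2, Slfn1, Slfn4 and Slfn3 (all plus strand), with Slfn10-ps between Slfn8 and Slfn2 and Slfn14 beyond Slfn3. The RefSeq promoter windows, from 250 bases before to 50 bases after the annotated start on GRCm38.p6, were matched by symbol for all 7 genes. Slfn8 has 2 annotated starts and so 2 windows, which overlap, and the window listed first is shown and used for the comparisons between windows. They are shown because the windows split along the class III line. The interferon-stimulated response element core was searched as GAAANNGAAA on both strands, and it was found in the windows of Slfn5, Slfn9 and Slfn8 and in none of the other 4. Of 32851 RefSeq windows of this length, 3.44% hold it. The 3 windows follow on the strand of each gene, 5′ to 3′, with the match in capitals.

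Slfn5, chr11:82951852-82952151, plus strand: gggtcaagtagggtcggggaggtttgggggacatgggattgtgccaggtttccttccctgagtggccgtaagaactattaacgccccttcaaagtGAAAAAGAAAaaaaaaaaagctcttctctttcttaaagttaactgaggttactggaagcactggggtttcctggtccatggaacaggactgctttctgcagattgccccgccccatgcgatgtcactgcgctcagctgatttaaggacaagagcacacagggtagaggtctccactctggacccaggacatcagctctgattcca
Slfn9, chr11:82991781-82992080, minus strand: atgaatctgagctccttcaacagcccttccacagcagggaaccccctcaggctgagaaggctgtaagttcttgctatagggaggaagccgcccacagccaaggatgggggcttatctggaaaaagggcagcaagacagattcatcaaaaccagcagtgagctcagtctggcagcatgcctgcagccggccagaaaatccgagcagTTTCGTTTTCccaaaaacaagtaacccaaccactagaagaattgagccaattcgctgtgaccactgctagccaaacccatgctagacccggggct
Slfn8, chr11:83020761-83021060, minus strand: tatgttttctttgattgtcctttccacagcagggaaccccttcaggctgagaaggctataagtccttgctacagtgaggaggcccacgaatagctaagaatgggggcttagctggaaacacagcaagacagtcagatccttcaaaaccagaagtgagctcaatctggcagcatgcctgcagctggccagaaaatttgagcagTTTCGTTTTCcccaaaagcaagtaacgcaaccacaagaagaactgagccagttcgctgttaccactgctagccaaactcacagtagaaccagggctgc

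The match in Slfn9 and Slfn8 is the same 10-letter word on the opposite strand, at positions -45 and -48 from the annotated start. In the other window of Slfn8 the same match stands at -136. The windows printed for Slfn9 and Slfn8 are identical at 80.8% of 312 aligned columns, so their matches are not separate observations. In Slfn5 the match is at position -155, at the head of a run of A. That position is from the RefSeq start. In GENCODE M21 Slfn5 begins at 82951349, so the window and its match lie inside the gene as annotated there. A window at the GENCODE start of Slfn5 was not searched. The other core searched, the gamma-activated sequence TTCNNNGAA, was in no window of the 7 genes and in 8.3% of all windows.

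The windows of the class I and class II genes share a different word. ACTTCCTGG, or its reverse complement CCAGGAAGT, was the only word of 9 letters present in at least 4 of the 7 windows. It holds GGAA, the core bound by ETS factors, a family that includes the macrophage factor PU.1. It was in the windows of Slfn1, Slfn2, Slfn3 and Slfn4, at positions -74, -55, -42 and -73, always on the gene's own strand, and in 0.843% of the 32851 windows. The word was found by listing all shared words and was not named in advance. The stretches around it are below, with the word in capitals.

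Slfn1, chr11:83116726-83116774, plus strand: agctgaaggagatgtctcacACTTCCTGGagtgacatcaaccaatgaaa
Slfn2, chr11:83065037-83065085, plus strand: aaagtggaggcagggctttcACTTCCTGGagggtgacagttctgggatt
Slfn3, chr11:83191268-83191316, plus strand: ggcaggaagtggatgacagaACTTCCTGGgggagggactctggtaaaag
Slfn4, chr11:83175093-83175141, plus strand: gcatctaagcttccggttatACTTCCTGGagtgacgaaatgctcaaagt

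Reads of the paralogs are not fully separable. Expected counts were not whole in any of the 12 libraries for Slfn3 and Slfn4, in 7 libraries for Slfn5, in 6 for Slfn9 and in 1 for Slfn8, and they were whole throughout for Slfn1 and Slfn2. Of the 50-base words in the annotated transcripts, 14.6% of those of Slfn8 and 11.2% of those of Slfn9 occur in another family row. The share was 8.15% for Slfn4, 7.39% for Slfn3, 4.27% for Slfn2 and 0.606% for Slfn1, and no word of Slfn5 was shared. Levels of Slfn8 against Slfn9, and of Slfn3 against Slfn4, therefore carry an uncertainty that the spread between libraries does not show. Counts that are not whole did not follow the shared words in every gene. Slfn5 had such counts in 7 libraries without a shared word, and Slfn2 was whole throughout with 4.27% shared.

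Per length, Slfn2 was the leading Schlafen transcript in every group. In the authors' FPKM it averaged 152 ± 5.79 with RHC80267, 319 ± 26.2 with BMS309403, 286 ± 5.53 with RANKL and 273 ± 6.51 with M-CSF (SD, n = 3 each), which places it in the top 3.73%, 1.91%, 2.09% and 2.09% of all genes by mean FPKM. Slfn5 came next, at 14.8 ± 1.23 FPKM with RHC80267, 80.6 ± 7.29 with BMS309403, 67.9 ± 6.41 with RANKL and 64.3 ± 6.19 with M-CSF. Slfn8 followed Slfn5 in each group, at 9.57 ± 0.588, 27.8 ± 1.8, 22.7 ± 0.841 and 27.8 ± 2.56 FPKM in the same order of groups. The mean of each of the other 4 genes was at most 8.54 FPKM in any group, and their order differed between groups. In the M-CSF group Slfn9, Slfn1 and Slfn3 averaged 4.03 ± 0.442, 3.81 ± 0.796 and 3.8 ± 0.375 FPKM, less apart than their spread.

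The make-up of the family pool was set apart in the RHC80267 libraries. Slfn2 made up 81.8% ± 1.45 of the summed FPKM of the 7 genes there, against 71.1% ± 1.15 with BMS309403, 72.4% ± 1.44 with RANKL and 72.0% ± 1.48 with M-CSF (SD, n = 3 each). Slfn5 made up 7.95% ± 0.805 with RHC80267, against 18% ± 0.752, 17.2% ± 1.08 and 16.9% ± 0.978 in the other groups. For both genes no RHC80267 library overlapped a library of another group. The summed FPKM of the 7 genes was 186 ± 3.96 with RHC80267, 448 ± 34.6 with BMS309403, 395 ± 12.5 with RANKL and 379 ± 15.0 with M-CSF.

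**Figure D1:**
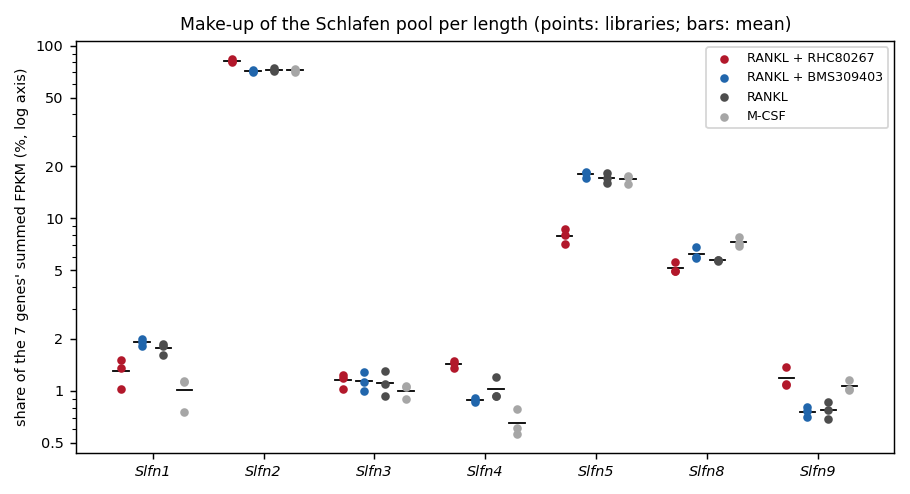
Share of each Schlafen gene in the summed FPKM of the 7 genes (percent, log axis), with 1 point per library, 3 libraries per group and a bar at the mean. Slfn2 holds 81.8% with RHC80267 and 71.1% to 72.4% in the other groups, and Slfn5 holds 7.95% with RHC80267 and 16.9% to 18% elsewhere.

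RHC80267 was set against RANKL to ask what the inhibitor adds to RANKL treatment. All 7 Schlafen genes were lower with RHC80267, by log2 fold changes of -0.48 to -2.24 with a median of -1.08. No member's libraries overlapped between the groups, but the share of all genes without overlap was not counted. Among all 12168 genes tested, 23.0% were called lower and 26.9% higher, with a median of 0.02. Calls are those of edgeR's quasi-likelihood test at an adjusted p below 0.05 (Benjamini-Hochberg, taken over the whole set of tested genes). All 7 members passed the filter on low counts. In bulk libraries, fewer cells of a type and less RNA per cell cannot be told apart.

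Of the class III genes, Slfn5, a nuclear protein that in human cells is induced by interferon, had 81.0, 89.0 and 74.9 CPM with RHC80267, against 379, 425 and 356 CPM with RANKL. Every RHC80267 library was below every RANKL library by a wide margin, and the mean was 4.73-fold lower (log2 fold change -2.24 ± 0.08 (SE), adjusted p = 3.58e-15). Slfn8 had 31.5, 36.1 and 33.0 CPM with RHC80267 against 80.6, 85.3 and 79.9 CPM with RANKL (-1.29 ± 0.07, adjusted p = 8.37e-13). Its neighbour Slfn9 had 21.3, 16.5 and 17.8 CPM with RHC80267 against 26.5, 26.8 and 24.3 CPM with RANKL (-0.48 ± 0.08, adjusted p = 3.91e-05). Slfn5 and Slfn9 thus mark the ends of the range, and their 95% intervals, -2.41 to -2.08 and -0.65 to -0.31, lie apart.

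The similar Slfn8, Slfn9 and Slfn10-ps can trade reads, and their sum does not depend on how reads were divided among them. It was 57.0, 58.4 and 55.6 CPM with RHC80267, against 119, 125 and 117 CPM with RANKL, a log2 ratio of means of -1.08. The 3 class III members together gave 134, 142 and 126 CPM with RHC80267, against 486, 537 and 460 CPM with RANKL (-1.89).

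Of the class I genes, Slfn2 had 195, 193 and 207 CPM with RHC80267 against 371, 390 and 386 CPM with RANKL, a 1.92-fold lower mean (-0.94 ± 0.05, adjusted p = 1.27e-12). Slfn1, which arrests growth when made in fibroblasts or T cells, had 3.77, 4.25 and 2.99 CPM with RHC80267 against 11, 12 and 9.91 CPM with RANKL. Its RHC80267 libraries rest on 55 to 78 counts each and lie well below the RANKL libraries (-1.58 ± 0.14, adjusted p = 5.94e-09).

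Of the class II genes, Slfn3, studied mainly in the gut lining of rats and mice, had 2.75, 3.27 and 3.26 CPM with RHC80267 against 7.49, 6.68 and 5.43 CPM with RANKL (-1.08 ± 0.16, adjusted p = 1.29e-05). Slfn4 had 9.21, 9.43 and 8.85 CPM with RHC80267 against 16.6, 13.6 and 13.1 CPM with RANKL (-0.66 ± 0.11, adjusted p = 5.36e-05). Summed over both, which does not depend on how reads were split between Slfn3 and Slfn4, class II held 12, 12.7 and 12.1 CPM with RHC80267 against 24.0, 20.3 and 18.5 CPM with RANKL (-0.77). Of the 50-base words of Slfn4, 1.72% also occur in Slfn2 and 0.274% in Slfn1, and the class II sum does not cover reads divided with those genes. Class I summed to 199, 197 and 210 CPM with RHC80267 against 382, 402 and 396 CPM with RANKL (-0.96). Beside the -1.89 of class III, no test of the difference between the class sums was made.

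The promoter words did not order the genes by response. The 3 genes whose windows hold the interferon element changed by -2.24, -1.29 and -0.48, and the 4 genes that share the ETS-type word by -1.58, -0.94, -1.08 and -0.66. The ranges overlap.

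**Figure D2:**
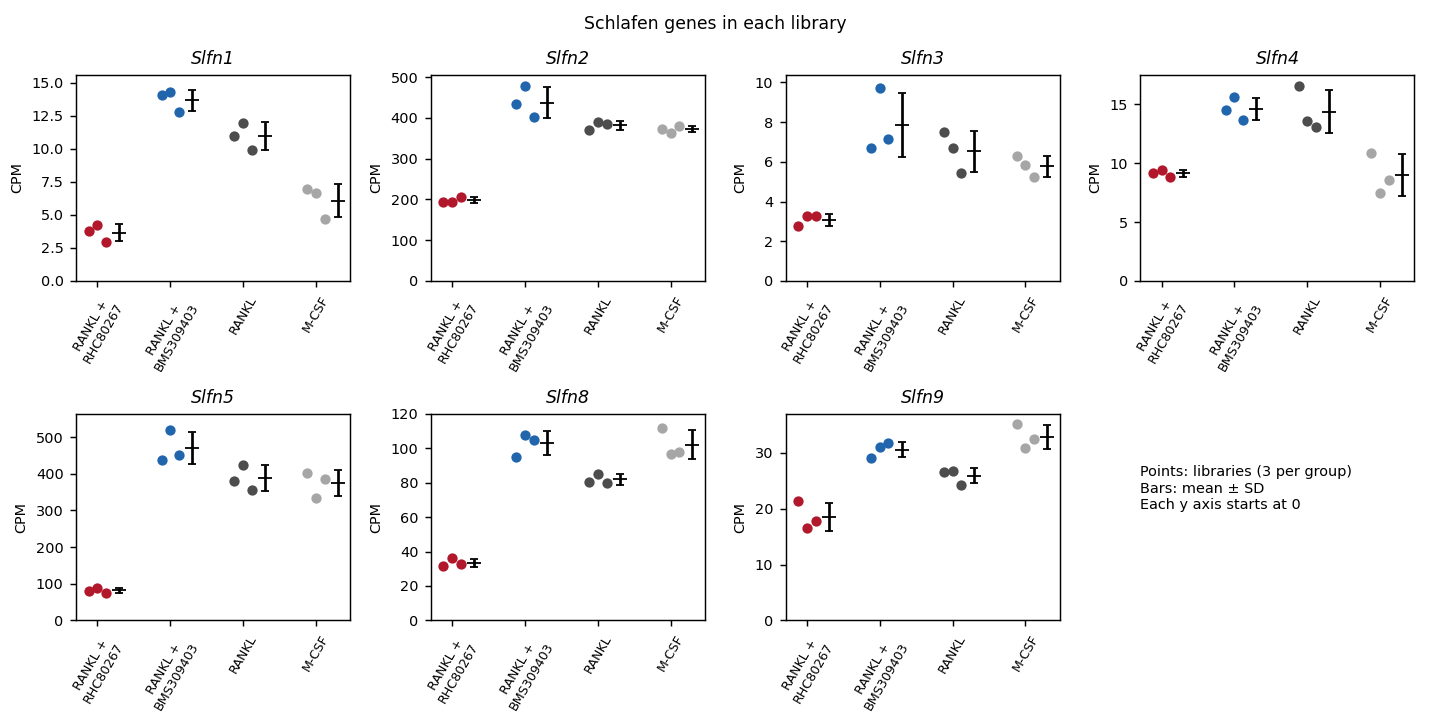
CPM of each Schlafen gene in every library, with the RHC80267, BMS309403, RANKL and M-CSF groups from left to right, 3 points per group and the mean ± SD beside them; each axis starts at 0. The RHC80267 libraries lie below the RANKL and BMS309403 libraries for all 7 genes, and for Slfn4 they lie at the level of the M-CSF libraries.

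Of 9 other genes examined within 200 kb of the cluster, 6 passed the filter. Of these 6, 1 was called lower and 1 higher with RHC80267 against RANKL. Among all genes tested 23.0% were called lower and 26.9% higher, so these counts are near the background. The log2 fold changes of the 6 flanking genes ran from -0.37 to 0.32 with a median of 0.01. Rffl, a ubiquitin ligase gene, was lower (34.5 ± 1.66 CPM with RHC80267, 44.5 ± 2.44 CPM with RANKL, -0.37 ± 0.05, adjusted p = 8.82e-06), and Rad51d, a DNA repair gene, was higher (18.7 ± 0.408 and 15.0 ± 0.404 CPM, 0.32 ± 0.07, adjusted p = 0.000504). Zfp830, Lig3, Nle1 and Ap2b1 were not called. Fndc8, Unc45b and Rasl10b were too low to test. The pseudogene Slfn10-ps, inside the cluster, had 4.15, 5.78 and 4.83 CPM with RHC80267 against 11.9, 12.4 and 12.8 CPM with RANKL and fell by 1.33 ± 0.11 on the log2 scale (adjusted p = 4.09e-09). Slfn14 held 30 counts over all 12 libraries and Slfnl1, which lies on chromosome 4, held 1, so neither was tested.

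**Figure D3:**
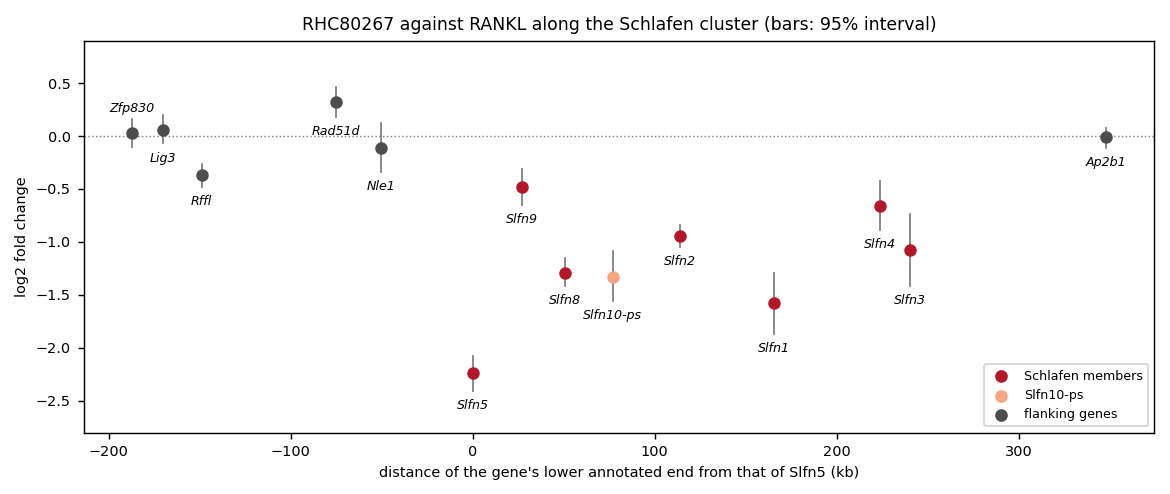
Log2 fold change of RHC80267 against RANKL (bars, 95% interval) for the tested genes of the Schlafen cluster and 6 tested flanking genes, by the distance in kb of each gene's lower annotated end from that of Slfn5. The 7 members and Slfn10-ps lie between -2.24 and -0.48, and the flanking genes between -0.37 and 0.32.

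RHC80267 set against BMS309403 compares the inhibitors at the same dose and time. All 7 genes were lower with RHC80267, by -0.67 to -2.52 with a median of -1.34, while 25.5% of all genes tested were called lower and 30.1% higher. Slfn5 averaged 81.7 ± 7.11 CPM with RHC80267 against 469 ± 43.7 CPM with BMS309403, which is 5.75-fold lower (-2.52 ± 0.08, adjusted p = 2.14e-16). Slfn1 averaged 3.67 ± 0.638 CPM with RHC80267 against 13.7 ± 0.79 CPM with BMS309403 (-1.90 ± 0.14, adjusted p = 1.14e-10). The smallest differences were those of Slfn4 (-0.67 ± 0.11, adjusted p = 3.34e-05) and Slfn9 (-0.73 ± 0.08, adjusted p = 8.61e-08). For all 7 genes the libraries of the groups did not overlap, and here too the share of all genes without overlap was not counted.

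BMS309403 against RANKL gave small values in the other direction. Slfn2, Slfn5 and Slfn8 were called higher and no member lower, in a comparison where 3.49% of all genes tested were called higher and 3.74% lower. The median over the 7 members was 0.27, against -0.01 over all genes tested. Slfn8 had 94.7, 108 and 105 CPM with BMS309403 against 80.6, 85.3 and 79.9 CPM with RANKL (0.33 ± 0.06, adjusted p = 0.00158), and its call held under every alternative processing tried and with each library left out.

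The calls of Slfn2 and Slfn5 were less firm. Slfn2 had 434, 478 and 402 CPM with BMS309403 against 371, 390 and 386 CPM with RANKL (0.20 ± 0.05, adjusted p = 0.0155). Slfn5 had 437, 519 and 452 CPM with BMS309403 against 379, 425 and 356 CPM with RANKL (0.28 ± 0.07, adjusted p = 0.0192). Neither pair of groups overlapped, but the second BMS309403 library was the highest for both genes. Without it the values were 0.13 (adjusted p = 0.134) for Slfn2 and 0.21 (adjusted p = 0.148) for Slfn5, and without the first RANKL library 0.17 (adjusted p = 0.102) and 0.26 (adjusted p = 0.101). Without the third RANKL library Slfn5 was at 0.22 (adjusted p = 0.0776). DESeq2 gave Slfn5 an adjusted p of 0.0939, and in the authors' deposited table Slfn2 and Slfn8 are the 2 members with a q-value below 0.05 for this comparison.

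Slfn1 and Slfn9 also had BMS309403 libraries that all lay above the RANKL libraries, without a call in the fit over all groups. Slfn1 had 14.1, 14.3 and 12.8 CPM with BMS309403 against 11, 12 and 9.91 CPM with RANKL (0.32 ± 0.11, adjusted p = 0.0903). Slfn9 had 29.1, 31.0 and 31.7 CPM with BMS309403 against 26.5, 26.8 and 24.3 CPM with RANKL (0.24 ± 0.08, adjusted p = 0.0514). Slfn9 lies at the threshold: it was called with no filter (adjusted p = 0.0196), a stricter filter (adjusted p = 0.0438), RLE factors (adjusted p = 0.0494), limma-voom (adjusted p = 0.0492) and only the groups compared (adjusted p = 0.0176), and not by DESeq2 (adjusted p = 0.0631), with the authors' FPKM (adjusted p = 0.541), with the replicate block (adjusted p = 0.0504) or with any library left out. Slfn1 was called with no filter (adjusted p = 0.0444), only the groups compared (adjusted p = 0.0339) and the replicate block (adjusted p = 0.0364). The class II genes overlapped between the groups. Slfn3 had 6.70, 9.70 and 7.16 CPM with BMS309403 against 7.49, 6.68 and 5.43 CPM with RANKL, and its interval of -0.03 to 0.56 leaves a change of either sign unresolved. Slfn4 had 14.5, 15.6 and 13.7 CPM with BMS309403 against 16.6, 13.6 and 13.1 CPM with RANKL, with an interval of -0.21 to 0.23.

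RANKL against M-CSF split the family by member and not in 1 direction. Slfn1 and Slfn4 rose, Slfn8 and Slfn9 fell, and Slfn2, Slfn3 and Slfn5 were not called. Among all genes tested 31.4% were called higher and 29.8% lower, so 2 of 7 in each direction is near the background. The members' median was 0.05, and that of all genes tested was 0.00.

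Slfn1 had 11, 12 and 9.91 CPM with RANKL against 6.95, 6.65 and 4.66 CPM with M-CSF, a 1.80-fold higher mean with no overlap (0.85 ± 0.13, adjusted p = 5.98e-06). Slfn4 had 16.6, 13.6 and 13.1 CPM with RANKL against 10.9, 7.44 and 8.54 CPM with M-CSF (0.69 ± 0.11, adjusted p = 1.99e-05). Both lay above all M-CSF libraries. Slfn8 had 80.6, 85.3 and 79.9 CPM with RANKL against 112, 96.8 and 97.7 CPM with M-CSF (-0.32 ± 0.06, adjusted p = 6.72e-05). Slfn9 moved with it, at 26.5, 26.8 and 24.3 CPM with RANKL against 35.1, 30.8 and 32.5 CPM with M-CSF (-0.34 ± 0.07, adjusted p = 0.000434). For both of these all RANKL libraries lay below the M-CSF libraries. The abundant Slfn2 and Slfn5 overlapped between the groups. Slfn2 averaged 382 ± 10.3 CPM with RANKL and 373 ± 8.48 CPM with M-CSF, with an interval of the log2 fold change of -0.06 to 0.14. Slfn5 averaged 387 ± 35.5 and 374 ± 35.3 CPM, with an interval of -0.10 to 0.20, and its sign turned to -0.03 without the second RANKL or the second M-CSF library.

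**Figure D4:**
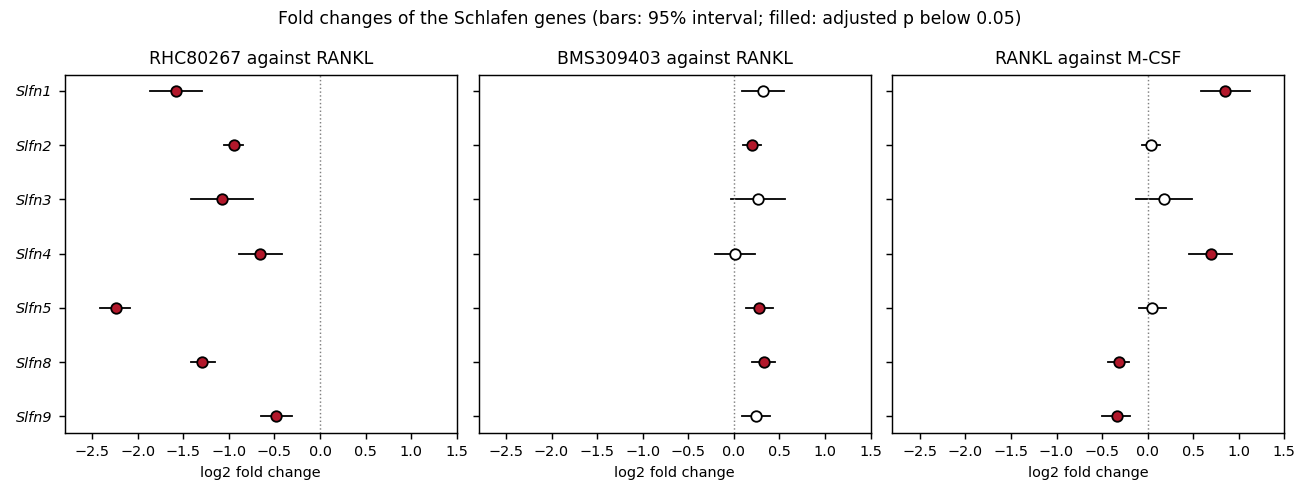
Log2 fold change (points) with its 95% interval (bars) for each Schlafen gene with RHC80267 against RANKL, BMS309403 against RANKL and RANKL against M-CSF; filled points have an adjusted p below 0.05. All 7 points are below 0 in the first panel, 3 are filled and above 0 in the second, and the third holds 2 filled points on each side of 0.

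Against M-CSF alone, RANKL with RHC80267 left 6 of the 7 genes lower and none higher, in a comparison with 34.4% of all genes called lower and 36.0% higher. Slfn5 averaged 81.7 ± 7.11 CPM with RHC80267 and 374 ± 35.3 CPM with M-CSF (-2.19 ± 0.08, adjusted p = 2.16e-16), and Slfn8 averaged 33.5 ± 2.36 and 102 ± 8.44 CPM (-1.61 ± 0.06, adjusted p = 1.48e-15). The exception was Slfn4, at 9.16 ± 0.292 CPM with RHC80267 and 8.97 ± 1.78 CPM with M-CSF, with an interval of -0.22 to 0.29. RANKL with BMS309403 left 5 genes higher than with M-CSF alone (Slfn1, Slfn2, Slfn3, Slfn4 and Slfn5) and none lower, where 29.7% of all genes were called higher and 27.3% lower. Slfn1 showed the largest difference of the 7, at 13.7 ± 0.79 CPM with BMS309403 and 6.09 ± 1.24 CPM with M-CSF (1.17 ± 0.12, adjusted p = 4.57e-08). The call of Slfn3 (0.44 ± 0.14, adjusted p = 0.0115) was lost without the third M-CSF library (0.38, adjusted p = 0.0517) or the second BMS309403 library (0.27, adjusted p = 0.127).

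Ordered by mean CPM, the BMS309403 group was highest for every gene except Slfn9, whose mean was highest with M-CSF, and the RHC80267 group was lowest for every gene except Slfn4, whose mean was lowest with M-CSF. Not all neighbours in these orders are shown to differ. The upper pair, BMS309403 and RANKL, was not separated for Slfn1 (adjusted p = 0.0903), Slfn3 (adjusted p = 0.308) or Slfn4 (adjusted p = 0.97). The middle pair, RANKL and M-CSF, was not separated for Slfn2 (adjusted p = 0.544), Slfn3 (adjusted p = 0.304) or Slfn5 (adjusted p = 0.578). For Slfn9 neither BMS309403 and M-CSF (adjusted p = 0.266) nor BMS309403 and RANKL (adjusted p = 0.0514) were separated. For Slfn8 the upper pair was BMS309403 and M-CSF, at 103 ± 7.04 and 102 ± 8.44 CPM (adjusted p = 0.93). In Slfn4 the RHC80267 and M-CSF groups formed the lower pair (adjusted p = 0.832).

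The wider interferon programme was described with a list of 36 interferon-induced genes that holds no Schlafen gene, of which 34 were tested. With RHC80267 against RANKL all 34 fell, by -0.94 to -3.90 with a median of -2.22, beside a median of -1.08 for the Schlafen genes. Of all genes tested, 23.0% fell and 26.9% rose. Rsad2, the antiviral enzyme viperin, averaged 8.15 ± 0.668 CPM with RHC80267 and 72.1 ± 6.05 CPM with RANKL (-3.14 ± 0.11, adjusted p = 4.25e-15). Cxcl10, a chemokine, averaged 3.03 ± 0.619 and 32.0 ± 2.68 CPM (-3.39 ± 0.12, adjusted p = 2.92e-15). Slfn5, at -2.24, was close to the list's median, while the falls of Slfn4 (-0.66) and Slfn9 (-0.48) were smaller than that of any gene on the list. With BMS309403 against RANKL 33 of the 34 rose, with a median of 0.44, beside 0.27 for the Schlafen genes, where 3.49% of all genes tested rose. With RANKL against M-CSF 24 fell and 2 rose, with a median of -0.28, beside 0.05 for the Schlafen genes. Here 29.8% of all genes tested fell and 31.4% rose.

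**Figure D5:**
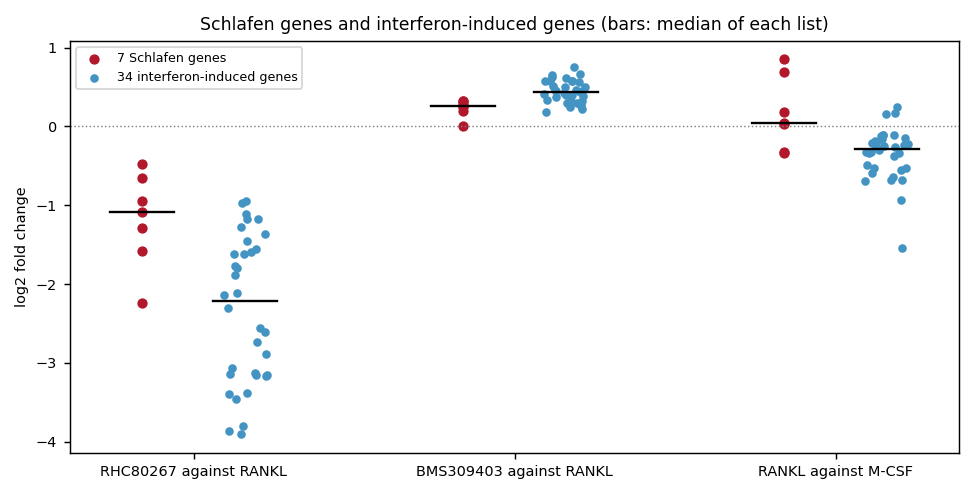
Log2 fold changes of the 7 Schlafen genes (left point column) and 34 interferon-induced genes (right point column) in each comparison, with a bar at each list's median. The medians are -1.08 and -2.22 with RHC80267 against RANKL, 0.27 and 0.44 with BMS309403 against RANKL, and 0.05 and -0.28 with RANKL against M-CSF.

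Upstream of these genes, type I interferon acts through the receptor chains Ifnar1 and Ifnar2 and a transcription factor complex that holds Stat2 and Irf9 and binds the interferon element. Of 16 receptor and signalling genes tested, 10 fell and 1 rose with RHC80267 against RANKL, where 23.0% of all genes tested fell and 26.9% rose. Stat2 averaged 42.3 ± 0.754 CPM with RHC80267 and 94.9 ± 5.74 CPM with RANKL (-1.17 ± 0.07, adjusted p = 1.05e-11), and Irf9 averaged 37.1 ± 1.51 and 64.9 ± 2.04 CPM (-0.81 ± 0.06, adjusted p = 2.18e-10). Irf7, itself interferon-induced, showed the largest fall of the list (-2.85 ± 0.10, adjusted p = 5.44e-15), and Irf3 was the gene that rose (0.39 ± 0.05, adjusted p = 3.36e-06). The receptor chains moved less, at -0.38 ± 0.04 for Ifnar1 (adjusted p = 8.95e-08) and -0.18 ± 0.04 for Ifnar2 (adjusted p = 0.00123). Ifnb1, the interferon beta gene and only ligand of the list, was at or near 0 in all libraries, with at most 0.0568 CPM. It was not tested. With BMS309403 against RANKL 6 of the 16 rose and none fell, where 3.49% of all genes tested rose and 3.74% fell. Among the 6 were Stat2 (0.38 ± 0.06, adjusted p = 0.000791) and Irf9 (0.23 ± 0.05, adjusted p = 0.0112). With RANKL against M-CSF 12 fell and none rose, where 29.8% of all genes tested fell and 31.4% rose.

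Because Schlafen proteins are known as growth regulators, 20 cell cycle genes were set beside them. With RHC80267 against RANKL, where all Schlafen genes fell, 17 of the 20 rose and 1 fell, with a median of 0.40. The shares over all genes tested were 26.9% higher and 23.0% lower, with a median of 0.02. Aurkb, a mitotic kinase, averaged 15.7 ± 0.452 CPM with RHC80267 and 10.1 ± 0.428 CPM with RANKL (0.64 ± 0.08, adjusted p = 4.4e-07). The gene that fell was Ccnd1, the cyclin of early G1, at 18.9 ± 1.32 and 54.8 ± 3.47 CPM (-1.53 ± 0.08, adjusted p = 1.58e-12). With BMS309403 against RANKL 7 fell and none rose, with a median of -0.21. The shares there were 3.74% of all genes tested lower and 3.49% higher, with a median of -0.01. Of 13 quiescence genes and cell cycle inhibitors, 6 rose and 4 fell with RHC80267 against RANKL, where 26.9% of all genes tested rose and 23.0% fell, with a median of 0.09. None was called with BMS309403 against RANKL, where 3.49% of all genes rose and 3.74% fell. Any link between these lists and the Schlafen levels was not tested.

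The genes whose log2 CPM followed each member most closely were taken by Pearson's r over the 12 libraries, among 12161 other tested genes. The libraries form 4 condition groups, so r here mostly compares group levels and is a description. For Slfn8 the nearest were Ifi204 (r = 0.998), Ifi203 (0.997) and Ifit3 (0.996), and for Slfn5 they were Cd180 (0.997), Ifi213 (0.997) and Samd9l (0.996). For Slfn2 they were Parp9, Evi2a and Isg15 (each 0.99), and for Slfn9 Ifnar1, Bst2 and Ppfia4 (each 0.97). Slfn1 was nearest to Lpgat1 and Kdr (each 0.98) and Gpalpp1 (0.97), Slfn3 to Rbms1, Tmem30a and Gna13 (each 0.97), and Slfn4 to Ensa (0.97), Isoc1 (0.96) and Nadk (0.95). Ranked by Spearman's rho, the first 3 places went to other genes for Slfn1, Slfn5, Slfn8 and Slfn9, and kept 1 gene each for Slfn2 (Evi2a), Slfn3 (Gna13) and Slfn4 (Ensa).

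Markers of other cells that express Schlafen genes moved between the groups as well. The T cell list, of which 9 of 10 genes are in the table, summed to 92.4 to 102 CPM with RHC80267, 197 to 211 CPM with BMS309403, 137 to 170 CPM with RANKL and 169 to 178 CPM with M-CSF. Nearly all of that was Cd4 and Cd28. The group means of the T cell receptor genes Cd3d, Cd3e and Cd3g were at most 0.0747 CPM, Cd3d was at 0 in all M-CSF libraries, Cd3e and Cd3g in all BMS309403 libraries, and Themis in all libraries of the 3 RANKL groups. The neutrophil list of 10 genes summed to 702 to 1046 CPM with RHC80267, 1506 to 1627 CPM with BMS309403, 1462 to 1672 CPM with RANKL and 1099 to 1591 CPM with M-CSF, with counts for all 10 genes in each group. Most of the neutrophil sum is S100a8, S100a9, Ngp and Ltf, and S100a9 averaged 264 CPM with RHC80267 and 472 CPM with RANKL. S100a8 (169 and 285 CPM), Ngp (250 and 494 CPM) and Ltf (107 and 187 CPM) were lower with RHC80267 too. So were Mpo (15.3 and 29.3 CPM), Elane (6.21 and 13.8 CPM) and Camp (13.9 and 32.1 CPM). Ly6g (1.19 and 1.14 CPM), Cxcr2 (10.4 and 11 CPM) and Retnlg (28 and 31.3 CPM) differed little between these groups. The part of the neutrophil list in the levels of the Schlafen genes was not tested. The 8 macrophage markers summed to 19209 to 20300 CPM with RHC80267, 26451 to 28072 CPM with BMS309403, 23787 to 25471 CPM with RANKL and 30513 to 31001 CPM with M-CSF. Most of each sum is Lyz2, the lysozyme gene, which averaged 14338 ± 527 CPM with RHC80267 and 19090 ± 821 CPM with RANKL, so the sum does not speak for the whole list. With RHC80267 against RANKL 2 of the 8 markers rose, 4 fell and 2 were not called, with a median of -0.08. Of all genes tested, 26.9% rose and 23.0% fell. Mertk, a receptor for the uptake of dying cells, rose (178 ± 8.18 CPM with RHC80267, 116 ± 11.6 CPM with RANKL). Fcgr1 (33.8 ± 1.9 and 82.5 ± 4.43 CPM) and Cd14 (88.8 ± 5.98 and 153 ± 1.26 CPM) fell. The dendritic cell list of 6 genes summed to 19.7 to 24.9 CPM with RHC80267, 30.3 to 32.2 CPM with BMS309403, 33.7 to 36.2 CPM with RANKL and 24.8 to 36.5 CPM with M-CSF, with counts for all 6 genes in each group. The B cell list of 6 genes summed to 9.07 to 10.7 CPM with RHC80267, 10.8 to 11.8 CPM with BMS309403, 10.8 to 11.5 CPM with RANKL and 14.4 to 15.5 CPM with M-CSF, most of it Cd79b, with counts for all 6 in each group. The NK cell list of 6 genes summed to 1.18 to 1.25 CPM with RHC80267, 2.79 to 3.41 CPM with BMS309403, 3.72 to 4.31 CPM with RANKL and 1.74 to 4.32 CPM with M-CSF. Nearly all of it was Klrd1, and Gzma, Prf1 and Eomes were at 0 in all libraries of the 3 RANKL groups. For the sums of these 3 lists all RHC80267 libraries lay below the RANKL libraries, which does not hold for each gene. Cd79b averaged 8.19 CPM with RHC80267 and 6.91 CPM with RANKL, and the dendritic cell gene Zbtb46 averaged 3.56 and 3.31 CPM. The part of these 3 lists in the Schlafen levels was not tested. The stromal list of 6 genes summed to 14.1 to 57.7 CPM with RHC80267, 7.27 to 10.2 CPM with BMS309403, 6.85 to 14 CPM with RANKL and 9.36 to 15.7 CPM with M-CSF, and its part was not tested either.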

How the data were processed

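The authors deposited 1 table with, per the file headers, a read count and an FPKM value per gene and library, and log2 fold changes with q-values for 6 comparisons. Between 9.49% and 9.89% of a library's values were not whole (tolerance 0.001), so they were taken to be expected counts, which the authors estimated per gene before they were deposited. Per the submitters' processing notes, the tools were Bowtie2, RSEM 1.3.1 and DESeq2 1.4.5. Their settings, how the authors computed FPKM and whether counting used strand are not given in the sources used.

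Expected counts were rounded. filterByExpr, run by group, dropped 4402 genes and left 12168 for testing, with TMM scaling. A single quasi-likelihood fit of edgeR 4.0.16 (R 4.3.3) took all 12 libraries and had no term but group, which left 8 residual degrees of freedom. Values are the mean ± SD of 3 libraries, or log2 fold changes ± SE, with Benjamini-Hochberg adjusted p over all genes tested, 2-sided. The members and lists were chosen with earlier results of these data known. The rule named all 7 members, the other family rows, the flanking genes, up to 4 genes per list and comparison with the smallest p, the 3 nearest genes per member, and osteoclast and macrophage markers. Ifnb1, Irf3 and the genes of the T cell, B cell, NK cell, neutrophil and dendritic cell lists lie outside it. So do Ifnar1, Ifnar2 and Irf9 in the comparisons where their values are given. All were named after their values were seen. Genes withheld from the text are not reported here.

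Gene positions came from GENCODE M21, because the deposited positions of the cluster's genes mix a patch sequence with chromosome 11. Promoter windows are from RefSeq and were aligned with Biopython. Alternatives were RLE factors, no filter, a stricter filter (1 CPM in 3 libraries), DESeq2 1.42.0, limma-voom (limma 3.58.1), limma on log2 of the authors' FPKM plus 0.1, only the groups compared, a replicate term, and each library left out. No 2 libraries held identical counts.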

Additional observations from a re-analysis of the deposited data

How the results depend on the processing

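All 7 falls with RHC80267 against RANKL, and all 7 against BMS309403, kept their sign and their call under each of the 14 alternatives run per gene. Over all 6 comparisons, 558 of 588 gene values kept direction and call, 10 lost a call, 8 gained one and 12 changed sign, all 12 of them values without a call. The number of members called higher with BMS309403 against RANKL was 3 by edgeR, 4 with RLE factors, the stricter filter or limma-voom, 5 with no filter or only the groups compared, 2 by DESeq2, 1 with the authors' FPKM, and 1 to 3 with a library left out. The cause was not tested. Slfn4 in that comparison was at -0.02 with the authors' FPKM and -0.05 to 0.12 with a library left out. With a library left out, Slfn5 with RANKL against M-CSF was at -0.03 to 0.11, Slfn8 with BMS309403 against M-CSF at -0.03 to 0.08, and Slfn4 with RHC80267 against M-CSF at -0.10 to 0.18. The labels do not say whether equal replicate numbers mark a shared animal or day. Same-numbered libraries correlated between -0.092 and 0.094 in their deviations, 0 of 18 pairs exceeded 0.1, and 5 of 12 libraries correlated best with their own number. No pairing was seen in these values, but with 3 libraries per group they cannot exclude it. With the number as a block, 4 members were called higher with BMS309403 against RANKL, the fourth being Slfn1 (0.32, adjusted p = 0.0364). Slfn1 and Slfn3 rest on 55 to 256 and 51 to 174 counts per library, which limits their precision.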
